A study of Mus musculus with 71 samples.

Results

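The genes described here are 32 type I interferon stimulated genes, a set named by gene symbol and found in all 6 deposited tables, out of the 55413 symbols that each table lists. They were listed by symbol as genes known to respond to type I interferon, with earlier results of these data known. Type I interferons (interferon alpha and beta) signal through the receptor IFNAR to the kinases JAK1 and TYK2, which phosphorylate STAT2 and its partners. With IRF9, STAT2 is part of the complex ISGF3, which binds the interferon-stimulated response element in promoters and switches on antiviral genes. Microglia, the resident macrophages of the brain, carry the receptor, and an interferon-responsive state of microglia has been described in ageing, viral infection, injury and amyloid models.

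The members fall into 9 roles. Stat2, Irf9 and Irf7 encode transcription factors of the response itself. Isg15 encodes a ubiquitin-like protein, Herc6 the ligase that attaches it in mice, and Usp18 the protease that removes it and restrains the receptor. Ifih1, Dhx58 and Zbp1 encode sensors or regulators of sensing of foreign nucleic acids, Ifit1, Ifit2 and Ifit3 proteins that act on viral RNA, and Oas1a, Oas2, Oas3 and Oasl2 members of the oligoadenylate synthetase family, whose enzymes activate RNase L. Ifitm3, Bst2, Mx1, Rsad2, Cmpk2 and Rtp4 restrict viral entry, release or replication. Ifi204 and Ifi205 belong to the HIN-200 proteins, which bind DNA. Slfn2, Slfn5 and Slfn8 are Schlafen genes, and Ifi27l2a, Ifi44, Xaf1, Trim30a and Parp14 are further induced genes.

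Microglia were sorted by GFP from mice heterozygous for Spp1-GFP, a reporter of the gene for osteopontin, and 67 bulk libraries of 2000 cells each were made from brain. The adult groups were 8 to 10 weeks old and comprised a cuprizone diet of 5 weeks, which damages myelin (4 control libraries, 3 GFP-negative and 3 GFP-positive), an inoculated CT2a glioma after 21 days (4, 4 and 4), and experimental autoimmune encephalomyelitis (EAE) recovered to a clinical score of 1 to 2 (3, 3 and 3). The 5xFAD mice, heterozygous for both the amyloid transgenes and Spp1-GFP, were 7 months old, as were their controls (4, 4 and 4). In the stroke model, called SIMPLE in the labels, injury was at P6 (postnatal day 6) with collection at day 9, or at P28 with collection at day 35, each with 4 GFP-positive and 4 GFP-negative libraries from the stroke cortex and 4 from the contralateral cortex of Spp1-GFP heterozygous mice. The controls of the 4 adult models were wild type mice without the reporter, so the effects of the disease, the reporter allele and the sorting gate cannot be told apart where a GFP group is set against them. The contralateral libraries are labelled as microglia with no gate, and the tables' headers name them GFP N. The labels do not say whether the libraries of a group came from separate animals, so the p-values measure only the spread between these libraries, which may be technical.

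Promoter sequence was looked at because type I interferon acts through this response element. In the RefSeq promoter table (build GRCm38.p6, 250 bases before to 50 after a gene's start), 23 of the 32 members were found. The core of the response element, GAAANNGAAA (on the other strand TTTCNNTTTC, and copies may overlap), occurred in 14 of these 23 members (60.9%) and in 1079 of all 27025 genes of the table (3.99%). Such a match is a description of the letters and not a shown binding site. No core was found for Irf7, Ifit2, Oasl2, Ifi44, Irf9, Xaf1, Slfn2, Cmpk2 and Herc6. Whether a core goes with the rises described below was not tested. The 150 bases before the start are shown for 6 members picked as examples with a core. They run 5′ to 3′ on the gene's strand, with each core in capitals. They show the overlapping cores of Isg15 and Bst2, the separate pair of cores of Ifit1, and the single cores of Rsad2 and Oas3. The stretch of Ifit3 shows 1 of its 2 cores, since the other starts 156 bases before the gene and is cut by the window.
Isg15: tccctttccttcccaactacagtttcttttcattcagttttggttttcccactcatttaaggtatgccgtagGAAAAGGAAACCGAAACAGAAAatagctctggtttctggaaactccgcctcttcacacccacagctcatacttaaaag
Bst2: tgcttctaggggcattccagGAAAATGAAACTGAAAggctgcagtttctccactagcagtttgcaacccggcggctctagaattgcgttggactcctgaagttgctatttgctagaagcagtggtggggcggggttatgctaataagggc
Ifit1: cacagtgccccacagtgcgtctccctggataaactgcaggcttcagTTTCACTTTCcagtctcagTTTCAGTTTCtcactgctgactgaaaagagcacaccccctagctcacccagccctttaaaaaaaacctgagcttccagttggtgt
Ifit3: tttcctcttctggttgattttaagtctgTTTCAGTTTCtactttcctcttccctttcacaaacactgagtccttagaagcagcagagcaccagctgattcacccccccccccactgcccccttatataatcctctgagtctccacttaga
Rsad2: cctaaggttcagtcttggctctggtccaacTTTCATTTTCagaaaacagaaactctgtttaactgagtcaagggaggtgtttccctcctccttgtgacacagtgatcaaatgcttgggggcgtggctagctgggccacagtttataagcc
Oas3: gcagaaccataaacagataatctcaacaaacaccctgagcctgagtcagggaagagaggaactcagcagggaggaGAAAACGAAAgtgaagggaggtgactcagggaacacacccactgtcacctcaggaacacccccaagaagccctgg

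These stretches lie at chr4:156200819-156200968 on the minus strand (Isg15, 3 cores), chr8:71537473-71537622 on the minus strand (Bst2, 2 cores), chr19:34640739-34640888 on the plus strand (Ifit1, 2 cores), chr19:34583379-34583528 on the plus strand (Ifit3, 1 whole core), chr12:26456453-26456602 on the minus strand (Rsad2, 1 core) and chr5:120777660-120777809 on the minus strand (Oas3, 1 core). The members lie on 14 chromosomes in GENCODE M21 on GRCm38. Neighbours no more than 1 Mb apart formed 6 runs that hold 15 of the members. These are Ifi204 with Ifi205 on chromosome 1, Oas2 with Oas3 and Oas1a on chromosome 5, Ifitm3 with Irf7 on chromosome 7, Slfn5 with Slfn8 and Slfn2 on chromosome 11, Rsad2 with Cmpk2 on chromosome 12, and Ifit2 with Ifit3 and Ifit1 on chromosome 19. Several neighbours have close paralogs, such as Oas1a with Oas1g, Ifi204 with Ifi205 and Ifi211, and the Schlafen genes, and the estimate of transcript levels can divide their reads, so the level of a single one is uncertain.

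Values are TPM, transcript abundances scaled to the same total in each library, and comparisons used log2(TPM + 1), on which the change of a weakly expressed gene is understated. Tested genes reached 1 TPM in at least the number of libraries of the table's smallest group, and a gene rose, fell or was called where the Benjamini-Hochberg adjusted p over all tested genes was under 0.05 in limma. The tables were normalised separately, so differences within a table are compared across models and levels are not. Depth is not known from TPM, and between 13024 and 17865 genes were above 0 per library. Spp1 checked the gate, at a mean of 439 to 1873 TPM in the GFP-positive groups and 4.4 to 99.5 TPM in the GFP-negative groups. The summed TPM of 10 microglial markers was high in every group but lower with disease and gate, as in glioma, where it ranged over 42728 to 48991 in controls, 7500 to 19677 in GFP-negative and 4317 to 9202 in GFP-positive libraries. In bulk libraries, fewer cells of a type and less RNA per cell cannot be told apart. The median of all tested genes differed between groups by −0.57 to 0.05 on the log2 scale, and rescaling each library to the median ratio over genes brought these medians to −0.02 to 0.02, so members' medians are given beside that of all genes.

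The mean log2(TPM + 1) over the 32 members separated the groups in 4 of the 6 models. Its group mean was 3.87 ± 0.59 (SD, n = 4) in the cuprizone controls, 3.58 ± 0.16 (n = 4) in the glioma controls, 3.69 ± 0.08 (n = 3) in the EAE controls, 3.38 ± 0.37 (n = 4) in the 5xFAD controls, and 4.12 ± 0.44 and 3.24 ± 0.08 (n = 4 each) in the contralateral cortex of the P6 and P28 strokes. Both GFP groups lay above their controls in every library in glioma, EAE and 5xFAD, by 4.49 and 4.25, by 2.89 and 2.55, and by 1.55 and 1.44 for GFP-negative and GFP-positive libraries. In the P28 stroke the GFP-positive libraries lay 1.88 above the GFP-negative ones, which lay 1.07 above the contralateral side, with no overlap among the 3 groups. In cuprizone and in the P6 stroke the groups overlapped, with differences between −0.39 and 0.26.

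**Figure D1:**
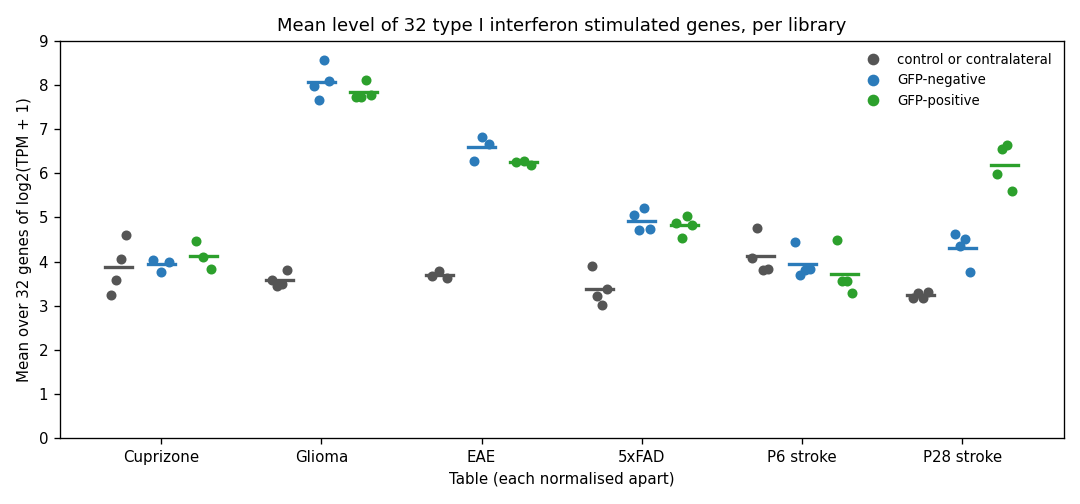
Mean log2(TPM + 1) over the 32 interferon stimulated genes (vertical axis) in each of the 67 libraries, side by side for the 6 tables, with points for libraries and lines for group means. Glioma, EAE and 5xFAD have both GFP groups above the control, the P28 stroke has 3 separate levels, and cuprizone and the P6 stroke have overlapping groups.

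In glioma all 32 members rose in the GFP-negative libraries against the wild type controls and 31 of 32 in the GFP-positive libraries (limma, adjusted p under 0.05). Of all 14461 tested genes, 16% were called higher and 36.8% lower in the first comparison, and 17.7% higher and 45.9% lower in the second. The members' median log2 difference was 4.94 (0.61 to 8.42) against −0.37 for all genes in GFP-negative libraries, and 4.69 (0.24 to 7.20) against −0.51 in GFP-positive libraries. Irf9 was the member with the smallest rise, by 0.61 (SE 0.12, adjusted p 0.000944, limma) in GFP-negative libraries, and it was not called in GFP-positive ones (0.24, adjusted p 0.0953, limma).

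Isg15 was at 12.3, 9.85, 7.81 and 6.05 TPM in the glioma controls, at 572, 435, 871 and 613 TPM in GFP-negative libraries, and at 507, 534, 681 and 553 TPM in GFP-positive libraries. Every library of both gates was far above every control, and the gates overlapped; the log2 difference from control was 5.96 (SE 0.22, adjusted p 8.84e-10) in GFP-negative and 5.86 (SE 0.22, adjusted p 7.23e-10) in GFP-positive libraries by limma. Zbp1, the sensor of Z-form nucleic acids, was at 3.66, 1.93, 6.87 and 3.02 TPM in controls, at 385, 271, 503 and 363 TPM in GFP-negative libraries and at 363, 354, 407 and 410 TPM in GFP-positive libraries. Its gates also overlapped, and the differences from control were 6.35 and 6.39 (SE 0.25 each; limma adjusted p 1.79e-09 and 1.44e-09). Oas3, the largest of the oligoadenylate synthetases, was at 0.52, 1.05, 0.19 and 1.41 TPM in controls, at 109, 69.2, 201 and 102 TPM in GFP-negative libraries and at 102, 108, 147 and 89.1 TPM in GFP-positive libraries, a rise of 6.025 and 6.001 (SE 0.30 each; limma adjusted p 1.22e-08 and 1.02e-08). Ifi44 was listed at 0 in 3 controls and at 0.84 TPM in the other, at 53.2, 52.3, 91.6 and 66.6 TPM in GFP-negative libraries and at 72.8, 63.3, 140.3 and 100.5 TPM in GFP-positive libraries. Controls were near or at 0 for Oas3 and Ifi44, so the size of their differences depends on the added 1 TPM. Group means were 15.2 ± 2.19, 923 ± 386 and 850 ± 189 TPM for Irf7, 128 ± 61.0, 3397 ± 920 and 2834 ± 483 TPM for Ifitm3, and 182 ± 28.8, 1127 ± 199 and 1362 ± 125 TPM for Bst2 (SD, n = 4) in control, GFP-negative and GFP-positive libraries.

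Few members separated the gates in glioma. Of the 32 members, 2 fell and none rose in GFP-positive against GFP-negative libraries. Of all genes, 5.75% were called lower and 0.927% higher there. At an unadjusted p under 0.05 (limma) were 7 members, all lower, and 3170 of all 14461 genes in either direction. The median was −0.23 against −0.15 for all genes. Ifi205 was at 0.46, 0, 0.13 and 0.43 TPM in controls, at 304, 321, 672 and 494 TPM in GFP-negative libraries and at 102, 177, 276 and 214 TPM in GFP-positive libraries. All GFP-negative libraries were above all GFP-positive ones (−1.23, SE 0.30, limma adjusted p 0.0305). Parp14, an ADP-ribosyltransferase, ranged over 109 to 142 TPM in GFP-negative and 74.9 to 91.4 TPM in GFP-positive libraries (−0.57, SE 0.12, limma adjusted p 0.017), above the controls at 19.4 to 25.6 TPM. Both genes were named after their values were seen. After rescaling no member was called, and without 1 library the count was 1 (GFP-negative 2, 3 or 4, or GFP-positive 1) or 0 (GFP-positive 2 or 4).

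Markers of other cells moved with the glioma comparisons. The summed TPM of 8 monocyte-derived cell markers was 34.6 to 80.5 in controls, 2130 to 5226 in GFP-negative libraries and 867 to 2572 in GFP-positive libraries, with all 8 markers above a mean of 1 TPM in both gates. The 8 markers of T and NK cells summed to 0 to 1.18 in controls, 109 to 211 in GFP-negative and 47.6 to 277 in GFP-positive libraries, and the 6 markers of conventional dendritic cells to 11.46 to 15.9, 125 to 411 and 6.52 to 134. The part of these cells in the interferon result was not tested. The share of called genes that were higher depends on scaling, and after rescaling it moved from 30.3% to 59.5% (GFP-negative against control), from 27.8% to 54.9% (GFP-positive against control) and from 13.9% to 43.7% (between the gates), while 32, 32 and 0 members were called.

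**Figure D2:**
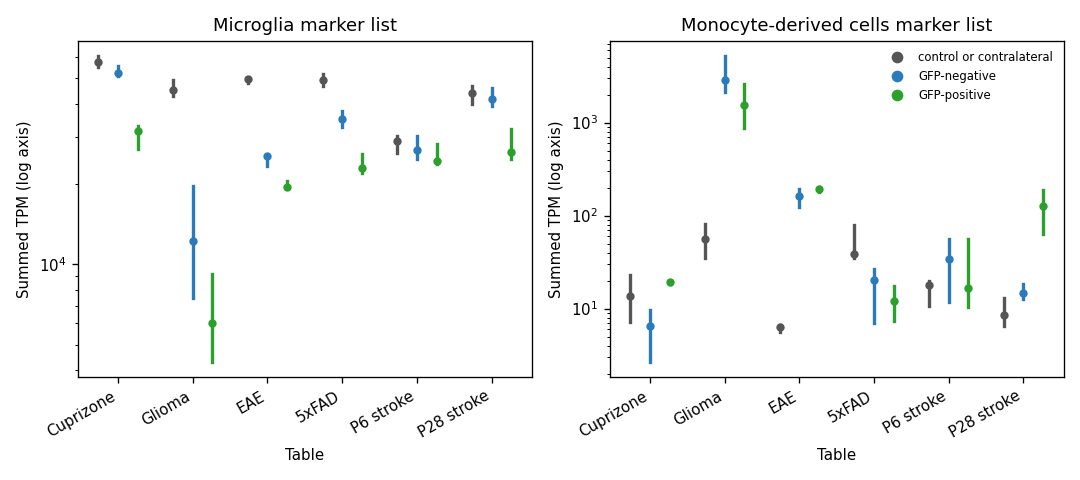
Summed TPM (log axes) of 10 microglial markers and, in the other panel, of 8 monocyte-derived cell markers in each group of the 6 tables, with the dot at the median and the line spanning the lowest to the highest library. Monocyte-derived cell markers were between 2130 and 5226 TPM in the glioma GFP-negative libraries and were at most 201 TPM in all groups outside glioma.

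In EAE most members also rose in both gates. In GFP-negative libraries 29 of 32 members rose against control and in GFP-positive libraries 30 of 32, with none lower. Of all 13513 genes, 5.88% were called higher and 24.5% lower, and 6.91% higher and 22.9% lower, in these 2 comparisons. The members' medians were 3.12 (0.19 to 5.29) and 2.76 (−0.03 to 5.01), against −0.47 and −0.41 for all genes. The members not called were Irf9, Slfn8 and, in GFP-negative libraries, Ifih1. In these libraries Ifih1 was at 14.4, 45.8 and 39.8 TPM, against 16.8, 18.3 and 14.3 TPM in controls. Slfn8 was at 25.7, 109 and 89.3 TPM, against 63.3, 51.0 and 48.0 TPM. For both genes GFP-negative library 1 lay far below the other GFP-negative libraries, which were above every control. Without 1 library, 28 to 31 members were called in GFP-negative libraries against control.

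Ifi27l2a, which encodes a small interferon-induced membrane protein, was at 35.04, 55.4 and 45.1 TPM in the EAE controls, at 1558, 1288 and 1401 TPM in GFP-negative libraries and at 827, 766 and 757 TPM in GFP-positive libraries. The 3 groups did not overlap, and the log2 differences from control were 4.96 and 4.11 (SE 0.15 each; limma adjusted p 1.87e-08 and 5.51e-08). Oas2 was at 0.88, 0 and 1.99 TPM in controls, at 45.1, 80.9 and 79.9 TPM in GFP-negative libraries and at 54.1, 53.7 and 60.9 TPM in GFP-positive libraries. Its 2 gates overlapped far above the controls, with differences of 5.24 and 5.01 (SE 0.37 each; limma adjusted p 7.37e-06 and 6.37e-06). Oasl2, a relative of the synthetases, was at 5.01, 7.96 and 8.27 TPM in controls, at 188, 234 and 209 TPM in GFP-negative libraries and at 165, 171 and 164 TPM in GFP-positive libraries. Zbp1 was at 3.94, 0.76 and 1.97 TPM in controls, at 122, 119 and 103 TPM in GFP-negative libraries and at 87.4, 80.2 and 87.0 TPM in GFP-positive libraries. Oasl2 rose by 4.73 and 4.40 and Zbp1 by 5.29 and 4.86 against control, all called. Every GFP-positive library was below every GFP-negative one for both genes, though neither gate difference was called. Group means in control, GFP-negative and GFP-positive libraries were 19.9 ± 1.88, 248 ± 38.4 and 190.3 ± 13.3 TPM for Irf7, 31.7 ± 4.22, 767 ± 130.1 and 467 ± 20.2 TPM for Ifitm3, and 213 ± 14.48, 639 ± 90.1 and 458 ± 19.6 TPM for Bst2 (SD, n = 3). Isg15 was at 7.14 ± 1.77, 90.0 ± 17.4 and 47.6 ± 9.02 TPM.

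Between the EAE gates 3 members fell in GFP-positive libraries and none rose, against 0.437% of all genes called lower and 0.252% called higher. Rtp4, a Golgi chaperone that also limits viral RNA, was at 311, 254 and 269 TPM in GFP-negative and at 154, 164 and 170 TPM in the GFP-positive ones (−0.77, SE 0.13, limma adjusted p 0.03). Xaf1, a promoter of apoptosis, was at 108, 112 and 103 TPM and at 62.5, 58.2 and 66.3 TPM in these gates (−0.78, SE 0.14, limma adjusted p 0.045), and Ifi27l2a differed by −0.85 (SE 0.15, limma adjusted p 0.0394). In all, 18 of 32 members had every GFP-positive library below every GFP-negative library, where 8.54% of all genes did. An unadjusted p under 0.05 (limma) was found for 14 members, all lower, and for 1464 of all 13513 genes in either direction. The median was −0.34 against 0.05 for all genes. Rtp4 and Xaf1 were named after their values were seen. After rescaling no member was called, and without 1 library the count was 4 (GFP-negative 1), 1 (control 2) or 0 (control 3, GFP-negative 2 or 3, or GFP-positive 1, 2 or 3).

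Monocyte-derived cell markers in EAE summed to 5.61 to 6.66 TPM in controls, 124 to 191 in GFP-negative and 179 to 201 in GFP-positive libraries, led by Ly6i, with Chil3 among those at 0 in every GFP-positive library. T and NK cell markers summed to 0 to 1.04 TPM in controls, 1 to 35.4 in GFP-negative and 1.13 to 2.56 in GFP-positive libraries. The 8 plasmacytoid dendritic cell markers summed to 7.82 to 19.4, 78.2 to 87.8 and 65.8 to 72.8 TPM. Cox6a2 led this sum in both gates, at means of 67.9 and 47.8 TPM. Ly6d was listed at 0 in every library of both gates, and Klk1 and Cd300c in every GFP-positive one. The part of these cell types was not tested. The share of called genes that were higher moved with rescaling from 19.4% to 67.3%, from 23.2% to 61% and, between the gates, from 36.6% to 48.7%, while the members called numbered 31, 30 and 0.

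The rise in GFP-negative libraries was larger in glioma than in EAE. In a joint limma fit of both tables, 22 of 32 members had a difference from control that differed between the models, all larger in glioma, and 7.14% of 12915 genes differed in either direction. The median of the difference was 1.40 over the members and 0.08 over all genes. The widest was that of Ifi205, at 4.23 (SE 0.46, adjusted p 3.42e-05, limma), followed by Cmpk2, a mitochondrial nucleotide kinase, at 3.01 (SE 0.59, adjusted p 0.00387, limma). Isg15 differed by 2.47 (SE 0.33, adjusted p 0.000162, limma). For 10 members no difference was called, among them Oas2 (0.21, SE 0.43) and Ifitm3 (0.26, SE 0.38), which rose by 5.45 and 5.24 and by 4.81 and 4.55 in glioma and EAE. Cell markers also differed in these GFP-negative groups. Monocyte-derived cell markers summed to 2130 to 5226 TPM in glioma, from 34.6 to 80.5 in controls. In EAE they summed to 124 to 191 TPM, from 5.61 to 6.66 in controls. Microglial markers summed to 7500 to 19677 TPM in glioma and 23309 to 25538 TPM in EAE. The model cannot be told apart from the cells sorted or from the separate normalisation.

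**Figure D3:**
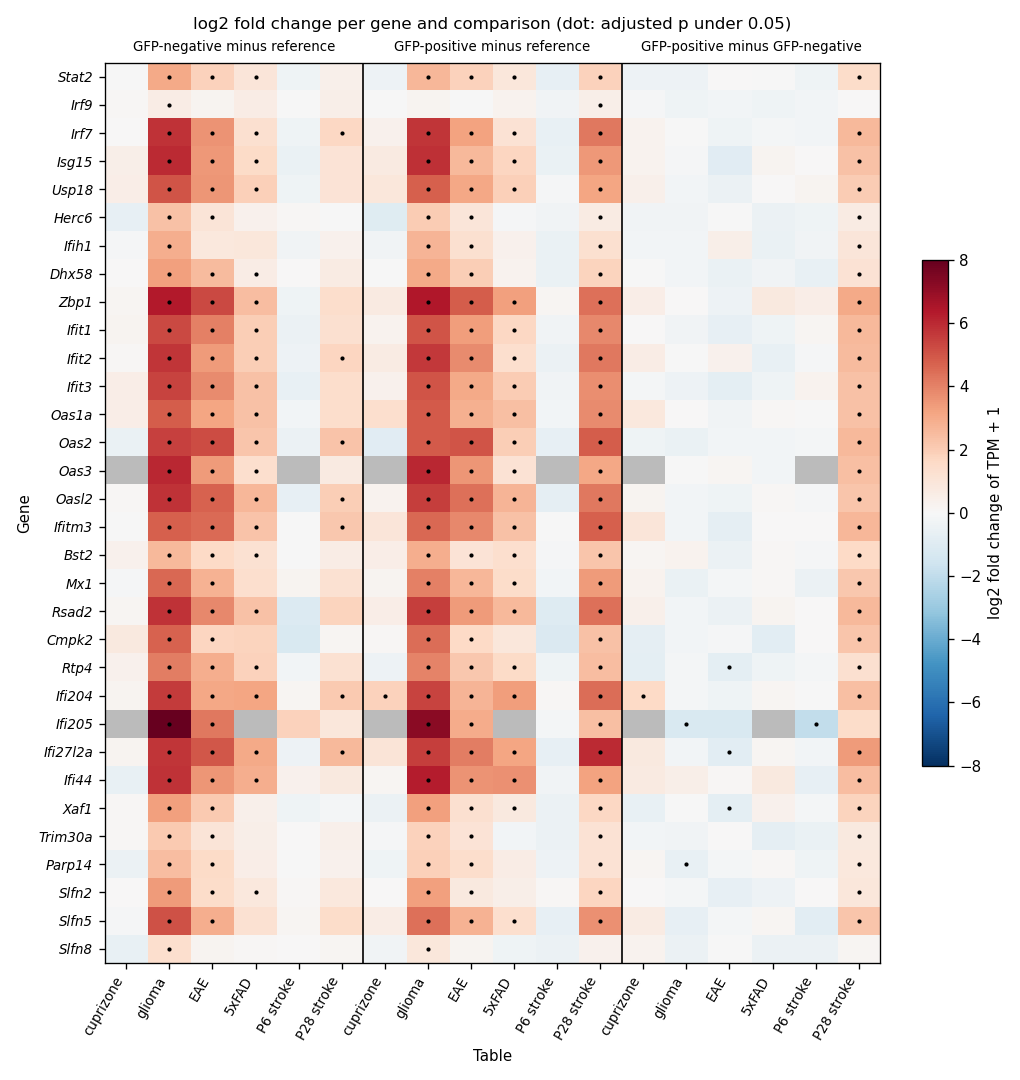
Log2 difference of TPM + 1 for each of the 32 members (rows, ordered by role) in each of the 18 within-table comparisons (columns), as colour, with a dot where the adjusted p was under 0.05 and grey where a gene was not tested. Glioma, EAE and 5xFAD are filled for both comparisons with control and pale between gates, and the P28 stroke is the one model filled between the gates.

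In 5xFAD about as many members rose in each gate. In GFP-negative libraries 21 of 31 tested members rose and in GFP-positive libraries 22 of 31, none fell, and Ifi205 was under the filter. Of all 12532 genes, 3.57% were called higher and 9.12% lower, and 6.11% higher and 33.9% lower. The medians were 1.53 (0.11 to 3.13) and 1.37 (−0.33 to 3.65), against −0.28 and −0.57 for all genes. All 4 oligoadenylate synthetases and all 3 Ifit genes rose in both comparisons, while 1 of 3 Schlafen genes did in each.

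Ifi27l2a was at 164, 98.6, 149 and 76.0 TPM in the 5xFAD controls, at 1196, 947, 1115 and 614 TPM in GFP-negative libraries and at 1104, 896, 1285 and 951 TPM in GFP-positive libraries. Every 5xFAD library was above every control, and the gates overlapped (3.001 and 3.16 from control, SE 0.23 each; limma adjusted p 7.31e-07 and 7.82e-08). Ifi204, a DNA-binding HIN-200 protein, was at 13.1, 11.1, 1.02 and 6.68 TPM in controls, at 76.3, 49.6, 89.1 and 43.1 TPM in GFP-negative libraries and at 70.7, 75.0, 73.3 and 63.1 TPM in GFP-positive libraries (3.13 and 3.32, SE 0.46 each; limma adjusted p 0.000413 and 4.27e-05). Zbp1 was listed at 0 in the third control and at 7.47, 5.68 and 6.17 TPM in the other controls, at 40.6, 13.7, 30.5 and 19.4 TPM in GFP-negative libraries and at 57.3, 25.6, 43.3 and 50.2 TPM in GFP-positive libraries. Controls and 5xFAD libraries did not overlap for either gene. Ifi44 was listed at 0 in all 4 controls, at 8.68, 2.75, 13.5 and 4.69 TPM in GFP-negative libraries and at 16.8, 8.06, 14.4 and 8.89 TPM in GFP-positive libraries. Isg15 was at a mean of 21.7 ± 10.0 TPM (SD, n = 4) in GFP-negative and 26.8 ± 12.4 TPM in GFP-positive libraries, against 6.92 ± 3.50 TPM in controls (1.53, SE 0.45, limma adjusted p 0.0357, and 1.75, SE 0.45, adjusted p 0.00613); its first GFP-positive library, at 8.62 TPM, lay within the controls. Group means in the same order, control first, were 20.9 ± 7.63, 52.2 ± 16.5 and 45.5 ± 4.202 TPM for Irf7, 77.0 ± 48.1, 343 ± 63.0 and 348 ± 61.4 TPM for Ifitm3, and 163 ± 46.8, 373 ± 52.7 and 400.0 ± 19.9 TPM for Bst2 (SD, n = 4).

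No member was called between the 5xFAD gates, where 1.02% of all genes were called higher and 7.14% lower by limma. At an unadjusted p under 0.05 (limma) there were 0 higher and 1 lower, where 2886 of all 12532 genes were under it in either direction. The median was −0.04 against −0.29 for all genes. Without GFP-positive library 3, 1 member was called. Monocyte-derived cell markers summed to 35.04 to 78.5 TPM in controls and to less in both gates, 6.94 to 26.7 and 7.43 to 17.5. The summed 8 markers of plasmacytoid dendritic cells, a major source of type I interferon, were 10.1 to 32.8 TPM in controls, 75.9 to 136 in GFP-negative and 232 to 272 in GFP-positive libraries, and this sum was led by Cox6a2, with Klk1 and Ly6d listed at 0 in every library of both gates. Their part was not tested. The share of called genes that were higher moved with rescaling from 28.2% to 77.4%, from 15.3% to 59.9% and, between the gates, from 12.5% to 62.9%, while the called members numbered 25, 26 and 0.

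In the P28 stroke the members separated the gates. In GFP-positive against GFP-negative libraries of the same cortex, 29 of 32 members rose and none fell, against 5.86% of 14303 genes called higher and 23.2% lower. The median was 2.22 (0.03 to 3.41) against −0.30 for all genes. In 28 of 32 members every GFP-positive library was above every GFP-negative one, where 5.5% of all genes were. The 3 members not called were Irf9, Slfn8 and Ifi205.

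The GFP-negative libraries were themselves above the contralateral cortex for fewer members. Of 32 members 7 rose and none fell, namely Irf7, Ifit2, Oas2, Oasl2, Ifitm3, Ifi204 and Ifi27l2a, where 0.217% of all genes were called higher and 0.021% lower. A further 17 had an unadjusted p under 0.05 (limma) and were higher, 24 in all. Of all 14303 genes, 1216 were under it in either direction. In 19 members every GFP-negative library was above every contralateral one, where 2.8% of all genes were. The median was 1.11 against −0.01 for all genes. This count rested on few libraries and on the filter: it was 0 with no filter on low values, 1 with no trend of the variance on the mean, and without 1 library it was 0 (GFP-negative 1 or 2), 1 (contralateral 2), 2 (contralateral 1 or GFP-negative 3), 3 (contralateral 3 or 4, or GFP-positive 2) or 4 (GFP-positive 1), and 10 without GFP-negative 4. In GFP-positive libraries 31 of 32 members rose against the contralateral side, all except Slfn8, where 7.56% of all genes were called higher and 28.4% lower, with a median of 3.19 (0.35 to 5.98) against −0.33.

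Ifi27l2a was at 18.5, 24.4, 16.0 and 35.6 TPM in the contralateral libraries, at 192, 163, 212 and 55.7 TPM in GFP-negative libraries and at 1457, 2059, 2414 and 669 TPM in GFP-positive libraries. The 3 groups did not overlap, and the fourth library was the lowest of both gates; GFP-positive libraries differed from GFP-negative ones by 3.41 (SE 0.44, limma adjusted p 0.000131) and these from the contralateral side by 2.57 (SE 0.44, adjusted p 0.033). Ifitm3, which blocks the fusion of viruses with host membranes, was at 33.4, 22.6, 14.6 and 32.6 TPM in contralateral, at 155, 109, 128 and 69.5 TPM in GFP-negative and at 723, 924, 911 and 423 TPM in GFP-positive libraries. It had the same 3 separate levels, with steps of 2.67 (SE 0.30, limma adjusted p 6.89e-05) and 2.13 (SE 0.30, adjusted p 0.02). Ifi204 was at 4.61, 6, 4.64 and 7.3 TPM in contralateral, at 34.7, 37.8, 26.7 and 14.0 TPM in GFP-negative and at 137, 175, 174 and 99.4 TPM in GFP-positive libraries, and Oas2 was at 0.27, 0.45, 0.33 and 0.51 TPM, at 9.19, 6.55, 7.2 and 2.3 TPM and at 36.1, 52.1, 54.9 and 23.6 TPM in the same groups. Both genes were separate in all 3 groups, with steps between the gates of 2.38 (SE 0.27, limma adjusted p 7.31e-05) and 2.59 (SE 0.34, adjusted p 0.000145).

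Among the other roles in the P28 stroke, all 3 members around Isg15 rose between the gates, and Isg15 itself was at 3.51, 4.44, 5.18 and 3.24 TPM in contralateral, 10.8, 7.75, 9.17 and 12.6 TPM in GFP-negative and 34.9, 89.2, 77.0 and 36.9 TPM in GFP-positive libraries. These 3 groups did not overlap, with a difference between the gates of 2.35 (SE 0.28, limma adjusted p 9.65e-05), and that of the GFP-negative libraries from the contralateral side was not called (1.12, adjusted p 0.176). Irf7, the transcription factor that amplifies interferon production, was at 9.31, 6.89, 5.43 and 11.6 TPM in contralateral, 35.7, 32.8, 29.6 and 16.9 TPM in GFP-negative and 152, 227, 256 and 93.5 TPM in GFP-positive libraries. It too had 3 separate levels (2.57 between the gates, SE 0.31, limma adjusted p 9.87e-05; 1.67 for GFP-negative against contralateral, adjusted p 0.0498, the weakest of the calls). All 3 nucleic acid sensors, all 3 Ifit genes, all 4 oligoadenylate synthetases and all 6 restriction factors rose between the gates, as did 2 of 3 Schlafen genes, 2 of 3 transcription factors and 1 of 2 HIN-200 genes. Bst2 was at 138 ± 17.1 TPM in contralateral, 214 ± 37.4 TPM in GFP-negative and 676 ± 221 TPM in GFP-positive libraries (SD, n = 4).

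Markers of other cells also moved with the P28 gate, though at low levels. Monocyte-derived cell markers summed to 6.44 to 12.9 TPM in contralateral, 12.8 to 18.2 in GFP-negative and 64.1 to 186 in GFP-positive libraries, led by Fn1 with a mean of 77.4 TPM, and Chil3 was listed at 0 in every GFP-positive library. The 8 plasmacytoid dendritic cell markers summed to 12.8 to 22.2, 13.2 to 20.5 and 28.6 to 80.2 TPM in the same groups, led by Cox6a2 in GFP-positive libraries, where Klk1, Ly6d and Spib were at 0. T and NK cell markers summed to 0.71 to 20.9, 0.17 to 3.56 and 0.25 to 26.0 TPM, so GFP-positive and contralateral libraries overlapped, and the microglial markers were lower there, at 24830 to 32073 TPM against 39247 to 45680 in GFP-negative libraries. Their part in the result was not tested. The share of called genes that were higher moved with rescaling from 20.2% to 63.6% between the gates and from 21% to 59.9% for GFP-positive against contralateral, while the called members numbered 30 and 32.

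**Figure D4:**
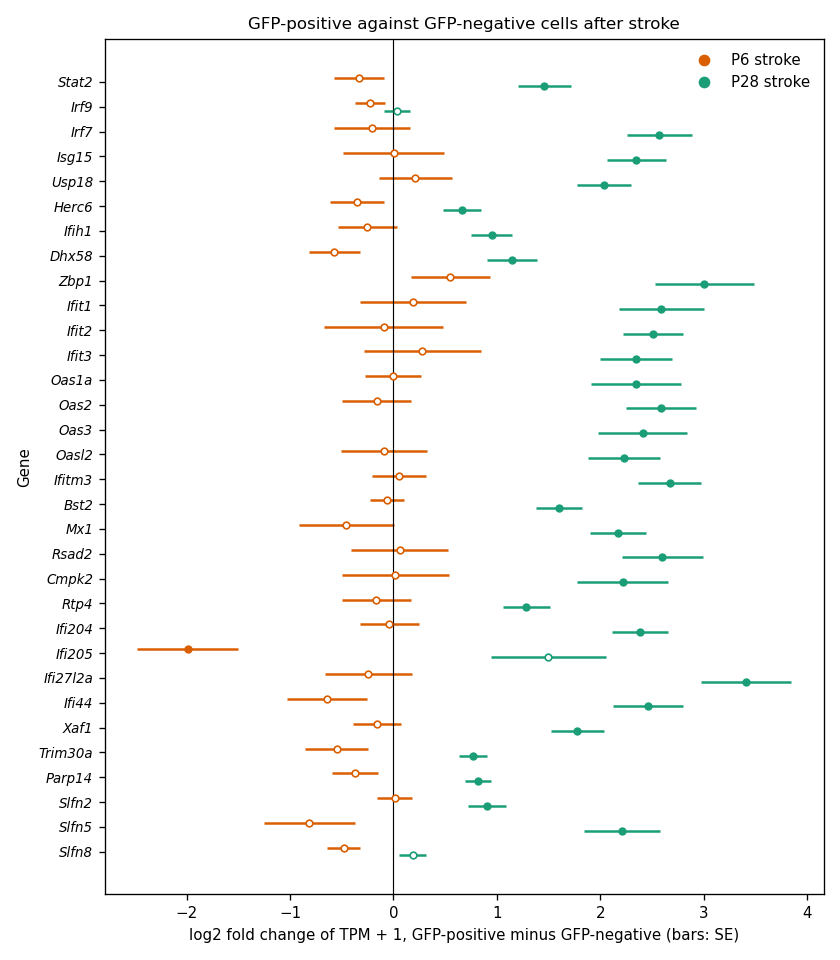
Log2 difference of TPM + 1 between GFP-positive and GFP-negative libraries for each member in the P6 stroke and the P28 stroke, with 1 point per member and stroke filled where called, and standard errors as bars. The P28 values lie between 0.03 and 3.41, and the P6 values scatter around 0 with Ifi205 at −1.99.

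After the P6 stroke few members were called. In GFP-positive against GFP-negative libraries 1 of 31 tested members was called, lower (2.33% of 13136 genes were called lower and 1.03% higher), with 3 at an unadjusted p under 0.05, all lower; the median was −0.16 against −0.12. No member was called in GFP-negative libraries against contralateral ones (0.183% of all genes lower and 0.0914% higher; limma, 1 member higher and 2 lower at an unadjusted p under 0.05). In GFP-positive against contralateral libraries 0 members were called by limma (2.56% of all genes lower and 0.556% higher; 0 members higher and 5 lower at an unadjusted p under 0.05), and the medians of these comparisons were −0.21 and −0.40 against −0.05 and −0.17 for all genes. At an unadjusted p under 0.05 (limma) were 2897, 1051 and 3027 of all 13136 genes in these comparisons, in the order given and in either direction. Oas3 was under the filter.

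The member called was Ifi205, at 0, 1.33, 0 and 0 TPM in contralateral libraries, at 1.4, 10.1, 1.2 and 5.53 TPM in GFP-negative libraries and at 0.54, 0, 0 and 0 TPM in GFP-positive libraries. The GFP-negative libraries were above the GFP-positive ones at low values throughout (−1.99, SE 0.49, limma adjusted p 0.0465), and the call was lost with no filter, at a minimum of 5 TPM, with an added 0.1 in place of 1 TPM and with no variance trend. Without 1 library, 0 members were called for 10 of the 12 libraries, all except GFP-negative 3 and GFP-positive 1. Isg15 was at 12.1, 28.7, 7.93 and 9.4 TPM in contralateral, at 19.9, 6.64, 11.0 and 3.46 TPM in GFP-negative and at 18.9, 7.68, 5.78 and 6.35 TPM in GFP-positive libraries. The groups overlapped, with 1 library above the rest in each, and the same contralateral 2, GFP-negative 1 and GFP-positive 1 libraries had the highest mean over the members. Slfn8, a Schlafen gene, was at 20.6, 30.8, 18.9 and 22.2 TPM in contralateral, at 24.7, 21.6, 22.0 and 23.2 TPM in GFP-negative and at 19.9, 16.4, 15.9 and 12.8 TPM in GFP-positive libraries, where the last group was below the GFP-negative one but the difference was not called (−0.48, SE 0.16, limma adjusted p 0.107). Group means in contralateral, GFP-negative and GFP-positive libraries were 27.2 ± 15.6, 19.9 ± 8.52 and 17.0 ± 7.63 TPM for Irf7, 106 ± 35.8, 101 ± 28.7 and 106 ± 38.0 TPM for Ifitm3, and 208 ± 26.9, 204 ± 43.0 and 197 ± 48.6 TPM for Bst2 (SD, n = 4). The 8 neutrophil markers summed to 116 to 129, 186 to 511 and 93.8 to 153 TPM in these groups, with 2, 6 and 5 of them above a mean of 1 TPM. Csf3r led the sum in contralateral and GFP-positive libraries, at means of 116 and 104 TPM. Retnlg led it in GFP-negative libraries, at a mean of 127 TPM. In contralateral libraries 6 markers were at 0, Retnlg among them, and Ly6g was listed at 0 in every group. The part of neutrophils was not tested. Without GFP-positive library 1, 3 members were called in GFP-positive against GFP-negative and 3 against contralateral libraries. After rescaling, the share of called genes that were higher moved from 30.6% to 61.3% between the gates, from 33.3% to 44.4% for GFP-negative against contralateral and from 17.8% to 75.2% for GFP-positive against contralateral.

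The difference between the strokes was tested directly. In a joint limma fit, the GFP-positive minus GFP-negative difference was lower after the P6 than after the P28 stroke in 28 of 31 members and higher in none, where 10% of 12413 genes differed in either direction. The median of the difference was −2.32 over the members and 0.15 over all genes. It was −3.65 (SE 0.66, adjusted p 0.000829, limma) for Ifi27l2a, −3.49 (SE 0.77, adjusted p 0.00545) for Ifi205 and −2.62 (SE 0.43, adjusted p 0.000394) for Ifitm3. Ifi205 was at 0 to 10.1 TPM in the P6 libraries and reached 1 TPM only in the GFP-negative ones and contralateral library 2. Its gate difference was not called in the P28 stroke, so its value here is uncertain. Irf9, Ifit3 (−2.07, SE 0.72, adjusted p 0.0709) and Cmpk2 (−2.20, SE 0.72, adjusted p 0.0536) were not called. The strokes also differ in the age of the mice, in the days from stroke to collection and in sex, since 6 of the 12 P6 libraries and none of the 12 P28 libraries had Xist above the Y-linked Eif2s3y, and these cannot be told apart from the stroke's timing.

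In cuprizone 1 member rose in GFP-positive libraries, Ifi204. It was at 9.23, 19.2, 25.5 and 20.6 TPM in controls, at 21.4, 19.1 and 21.2 TPM in GFP-negative libraries and at 69.5, 65.5 and 60.1 TPM in GFP-positive libraries. The GFP-positive libraries stood above all others, by 1.61 from GFP-negative (SE 0.29, limma adjusted p 0.00365) and 1.83 from control (SE 0.27, limma adjusted p 0.000479). The other 29 tested members were not called in any comparison. For GFP-positive against GFP-negative libraries 2.7% of 12877 genes were called higher and 7.49% lower, for GFP-positive against control 4.5% and 13.7%, and for GFP-negative against control 0.148% and 0.0155%, where no member was called by limma and 0 were higher and 1 lower at an unadjusted p under 0.05. In this last comparison 1020 of all 12877 genes had an unadjusted p under 0.05 (limma) in either direction. The members' medians, in the order given, were 0.17, 0.24 and 0.08 against −0.25, −0.29 and −0.03 for all genes.

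Bst2, or tetherin, which holds budding virus at the cell surface, was at 133, 174, 204 and 194 TPM in the cuprizone controls, at 236, 246 and 192 TPM in GFP-negative libraries and at 257, 197 and 299 TPM in GFP-positive libraries. The groups overlapped, and the difference from control was not called (0.51, SE 0.17, limma adjusted p 0.0543 in GFP-positive libraries). The count for GFP-positive against control went from 1 to 5 after rescaling and to 6 with a term for sex, and without 1 library to 5 (control 4) or 2 (control 3 or GFP-positive 2); that between the gates went to 2 without control 4. Irf7 was at 18.4 ± 9.98, 17.97 ± 6.46 and 23.1 ± 12.1 TPM, Ifitm3 at 67.8 ± 35.3, 62.8 ± 20.3 and 119 ± 11.6 TPM and Isg15 at 5.77 ± 4.10, 7.28 ± 2.31 and 9.40 ± 4.51 TPM in control (n = 4), GFP-negative and GFP-positive libraries (n = 3 each; SD). Microglial markers summed to 54720 to 60347, 50826 to 55345 and 27050 to 32995 TPM in these groups. The 6 border-associated macrophage markers summed to 255 to 357, 56.2 to 198 and 41.7 to 77.2 TPM. Plasmacytoid dendritic cell markers summed to 10.9 to 21.4, 18.6 to 24.8 and 62.8 to 68 TPM. Cox6a2 led that sum, at a mean of 48.6 TPM in GFP-positive libraries. Klk1, Ly6d and Spib were listed at 0 in every library of both gates. The part of these cell types was not tested. Rescaling moved the share of called genes that were higher from 26.5% to 68.8% between the gates and from 24.8% to 64.1% for GFP-positive against control.

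**Figure D5:**
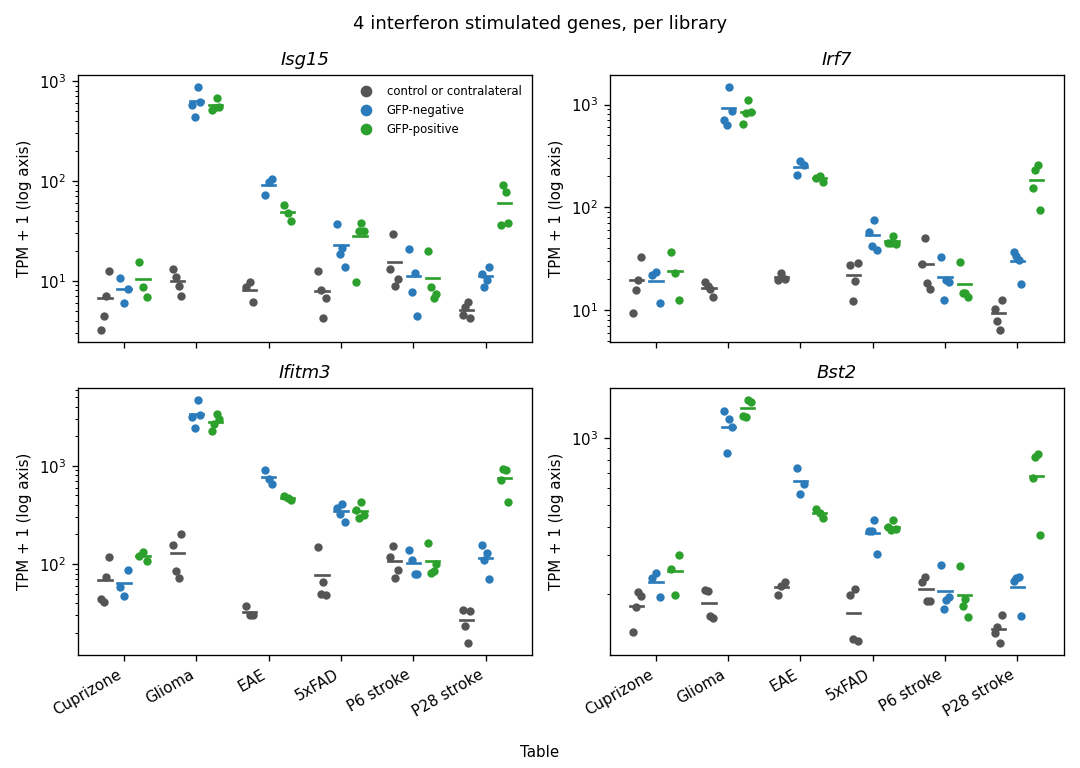
TPM + 1 on a log axis for Isg15, Irf7, Ifitm3 and Bst2 in each of the 67 libraries, with points for libraries and lines for group means. Isg15 reached group means of 622 TPM in glioma and 90.0 TPM in EAE GFP-negative libraries, and 59.5 TPM in P28 stroke GFP-positive libraries.

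Across the 6 models, the difference between the gates varied in 25 of the 30 members tested in all tables, where 17.8% of 11301 genes varied (F test over the joint limma fit), and the difference of GFP-negative libraries from their reference varied in 29 of 30, where 45.1% varied. Over the 18 within-table comparisons, Ifi204 rose in 11, the most of any member, and Irf7, Ifitm3, Ifit2, Oas2, Oasl2 and Ifi27l2a rose in 9. Irf9 and Slfn8 rose in 2 each. Comparisons within a table share libraries, so these counts are not independent. In the cuprizone controls Irf9 was at a mean of 89.1 ± 20.5 TPM (SD, n = 4), Isg15 at 5.77 ± 4.10 TPM and Stat2 at 21.2 ± 5.71 TPM. Slfn8 was at 13.2 to 23.2 TPM there, and Bst2, which rose in 8 comparisons, at 133 to 204 TPM. Whether the level at rest bears on the number of rises was not tested.

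The interferons themselves were scarce in the sorted libraries. Of 21 ligand genes, 9 were above 0 in any of the 67 libraries and 6 reached 1 TPM in any. Ifnb1, interferon beta, was above 0 in 17 libraries. In glioma it was at 4.29 TPM in 1 control and 0 in the other 3, at 1.96 to 13.6 TPM in GFP-negative and at 8.66 to 18.4 TPM in GFP-positive libraries. It rose by 1.61 (SE 0.61, limma adjusted p 0.0392) in GFP-negative and by 3.23 (adjusted p 0.000478) in GFP-positive libraries against control, and the difference between the gates was not called. In EAE Ifnb1 was above 0 in 2 of 3 libraries of each gate, at up to 1.71 TPM in GFP-negative and 1.14 TPM in GFP-positive ones. In 5xFAD it was above 0 in 1 of 4 libraries of each gate, at 3.02 and 4.91 TPM. In the P28 stroke Ifnb1 was above 0 in 2 of 4 GFP-positive libraries, at up to 1.92 TPM. It was 0 in all 12 libraries of the P6 stroke and in every cuprizone library. Ifng, interferon gamma, was above 0 in 5 libraries, all of glioma (4 GFP-positive and 1 GFP-negative), at up to 6.56 TPM; T and NK cell markers summed to 47.6 to 277 TPM in the GFP-positive libraries and 0 to 1.18 TPM in controls, and their part was not tested.

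Counts for the other parts of the pathway are read against the genes of each table before rescaling. The counts after rescaling, here and in the lists below, have no share of all genes beside them. With rescaling the share of called genes that were higher also rose, in every comparison for which it is given above. The shares called higher and lower were 16% and 36.8% in glioma, 5.88% and 24.5% in EAE and 3.57% and 9.12% in 5xFAD for GFP-negative libraries against control, and 5.86% and 23.2% between the gates of the P28 stroke and 2.7% and 7.49% between those of cuprizone. Of a list of 10 genes for receptor chains and signalling proteins, 1 rose and 3 fell in glioma, 1 and 3 in EAE, 2 and 1 in 5xFAD, 1 and 2 in the P28 stroke and 0 and 2 in cuprizone, in the same comparisons. After rescaling these were 4 and 1, 2 and 0, 3 and 1, 4 and 2, and 0 and 1. The falls in glioma and EAE were thus near the share of all genes.

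Ifngr1, a receptor chain for interferon gamma, was lower in all 5 of these comparisons, by 1.48, 0.98, 0.73, 0.76 and 0.65 on the log2 scale, cuprizone included, where 1 member was called. After rescaling it was still called in all of them except EAE (−0.43, adjusted p 0.112). Sting1, the adaptor of cytosolic DNA sensing, fell by 0.88, 0.64, 0.85, 0.74 and 0.90 in the same order, and after rescaling in all of them except EAE (−0.09, adjusted p 0.751).

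Of 17 tested genes that lead to interferon production, Sting1 among them, 3 rose and 8 fell in glioma, 1 and 7 in EAE, 0 and 5 in 5xFAD, 1 and 8 in the P28 stroke and 0 and 5 in cuprizone. After rescaling these were 5 and 2, 2 and 1, 0 and 1, 2 and 2, and 1 and 3. In GFP-positive libraries against their reference 3 rose and 10 fell in glioma, 1 and 5 in EAE and 0 and 11 in 5xFAD. In the P28 stroke and in cuprizone 1 rose and 8 fell each. Of all genes, 45.9%, 22.9%, 33.9%, 28.4% and 13.7% were called lower in these comparisons, and 17.7%, 6.91%, 6.11%, 7.56% and 4.5% higher. After rescaling the counts of the list were 5 and 5, 2 and 2, 1 and 6, 3 and 4, and 3 and 4. No share of all genes after rescaling is set beside them. Ikbke, a kinase that activates the interferon regulatory factors, was one that rose, by 4.56 (SE 0.18, limma adjusted p 2.06e-09) in glioma GFP-negative libraries, 3.65 (SE 0.39, limma adjusted p 0.000123) in EAE and 2.55 (SE 0.30, limma adjusted p 7.8e-05) between the gates of the P28 stroke.

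Of 13 inhibitors of the response, 7 rose and 2 fell in glioma, 4 and 3 in EAE, 2 and 3 in 5xFAD, 3 and 2 in the P28 stroke and 0 and 1 in cuprizone. After rescaling these were 8 and 0, 5 and 0, 2 and 0, 4 and 0, and 0 and 0. Falls also became a smaller share of all called genes after rescaling, so their loss is not particular to this list. Trex1, the nuclease that degrades cytosolic DNA, rose by 2.06 (SE 0.13, limma adjusted p 1e-07) in glioma, 1.10 (SE 0.11, limma adjusted p 7.78e-05) in EAE, 0.45 (SE 0.14, limma adjusted p 0.048) in 5xFAD and 0.70 (SE 0.17, limma adjusted p 0.00736) in the P28 stroke.

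Most genes of a wider list of other type I interferon induced genes rose in glioma, EAE and the P28 stroke. In GFP-negative libraries against control 60 of 63 rose in glioma, 47 of 62 in EAE and 14 of 56 in 5xFAD, and none fell in these 3 comparisons. In GFP-positive libraries against control 59 rose and 1 fell in glioma, 43 and 0 in EAE and 13 and 9 in 5xFAD. The 5xFAD counts became 23 and 0 after rescaling, with 20 and 0 in GFP-negative libraries. Falls also became a smaller share of all called genes in 5xFAD after rescaling. Between the gates of the P28 stroke 45 of 62 rose and none fell, with a median of 0.92 against −0.30 for all genes. In the P6 stroke 0 of 57 were called by limma in each of the 3 comparisons, with 1 higher and 7 lower at an unadjusted p under 0.05 between the gates, 1 and 2 for GFP-negative and 1 and 10 for GFP-positive against contralateral libraries. Of all 13136 genes, 2897, 1051 and 3027 were under it in the same order, in either direction. In cuprizone 4 of 59 rose and 2 fell between the gates, and 6 and 0 after rescaling. The ones that rose include Ifi211 and Ifi207, which belong with Ifi204 to the HIN-200 genes. Ifi207 was at 21.5 ± 0.97 TPM in GFP-positive against 9.07 ± 3.803 TPM in GFP-negative libraries (1.23, SE 0.31, limma adjusted p 0.0218) and Ifi211 at 9.34 ± 3.07 against 0.72 ± 0.67 TPM (n = 3 each; 2.63, SE 0.49, limma adjusted p 0.00411).

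Genes induced mainly by interferon gamma were listed apart. In GFP-negative libraries against control 17 of 17 rose in glioma and 16 of 17 in EAE, with Gbp2, a guanylate-binding protein, at 547 ± 114 against 5.55 ± 3.40 TPM in glioma (6.49, SE 0.26, limma adjusted p 2.12e-09) and at 208 ± 47.7 against 4.64 ± 2.83 TPM in EAE (5.29, SE 0.31, limma adjusted p 1.71e-06). In 5xFAD 2 of 16 rose and 1 fell, between the P28 gates 8 of 15 rose and 2 fell, and between the cuprizone gates 0 of 15 rose and 5 fell. After rescaling these were 4 and 0, 9 and 0, and 1 and 1, while falls became a smaller share of all called genes as well. Gbp7 had the smallest adjusted p of the falls in cuprizone, at 12.3 ± 1.26 TPM in GFP-positive libraries against 37.5 ± 3.79 TPM in the GFP-negative ones (−1.54, SE 0.23, limma adjusted p 0.000959). In the P6 stroke 0 of 13 were called by limma in each comparison, with 0 higher and 5 lower at an unadjusted p under 0.05 between the gates, 0 and 0 for GFP-negative and 0 and 7 for GFP-positive against contralateral libraries. Of all 13136 genes, 2897, 1051 and 3027 were under it in the same order, in either direction.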

How the data were processed

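The 6 deposited tables hold TPM, which per the labels' protocols and the submitters' processing notes come from a modified SMART-Seq2 library of paired-end reads handled with cutadapt 2.10, STAR 2.7.5c and RSEM 1.3.3 on GRCm38 or mm10, with settings not given in the sources read. TPM keeps no read depth, so no count test, interval or floor was used. RSEM can divide reads between near-identical paralogs.

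A separate limma fit (version 3.58.1, R 4.3.3) was made per table, on log2(TPM + 1), with 3 groups, a variance trend and Benjamini-Hochberg adjustment over all tested genes. Differences between models were tested on joint fits of within-table contrasts. The fits were tested on simulated data. Per-library values are given per table for up to 4 called members with the largest log2 difference, no overlap of the groups and 10 TPM or more on average in the higher of the 2 groups, filled to 2 by the smallest p; Isg15, Irf7, Ifitm3 and Bst2 are given in every table, and up to 4 called genes per pathway list. The members and lists were chosen with earlier results of these data known. The 4 hashed single-cell pools were not analysed here. Positions are those of GENCODE M21, promoters those of RefSeq, and plots were made in Python 3.11.15 (matplotlib 3.10.9). Alternatives were another pseudocount, no or a stricter filter, rescaling, no trend, a replicate block, a sex term (Xist above Eif2s3y) and each library left out. A few genes are not reported here.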

Additional observations from a re-analysis of the deposited data

Results flagged for a closer look

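Of 105 combinations of a group of 4 libraries and a named member or the member mean, 8 had 1 library far from the other 3. Chance gives about 1 in 20 for independent, normally distributed values. These combinations share libraries and some values are at 0, so the count cannot be set against that rate. Where 3 libraries were at 0, as for Ifi44 and Ifi205 below, any value above 0 in the other was marked. In glioma, Ifi44 was at 0.84 TPM in control 2 and at 0 in the other controls, and the member mean was 8.10 in GFP-positive library 3 against 7.72 to 7.77 in the others. In 5xFAD, Zbp1 was at 0 TPM in control 3 against 5.68 to 7.47, and Isg15 was at 8.62 TPM in GFP-positive library 1 against 30.7 to 36.9. In the P6 stroke, Ifi205 was at 1.33 TPM in contralateral library 2 and at 0.54 TPM in GFP-positive library 1 with the others at 0, and Irf7 was at 28.5 TPM in GFP-positive library 1 against 12.4 to 13.7. In the P28 stroke, Bst2 was at 158 TPM in GFP-negative library 4 against 228 to 236.

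The models differed in 4 direct tests. The difference between the gates varied over the 6 models in 25 of 30 members, where 17.8% of 11301 genes varied. The difference of GFP-negative libraries from their reference varied in 29 of 30, where 45.1% of all genes did. The latter difference was unlike between glioma and EAE in 22 of 32 members, where 7.14% of 12915 genes differed. The gate difference of the P6 and P28 strokes differed in 28 of 31 members, where 10% of 12413 genes did.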

How the results depend on the processing

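The counts of members called in both comparisons with control in glioma, EAE and 5xFAD, in GFP-positive against GFP-negative and contralateral libraries of the P28 stroke, and in the 4 tests between models stayed within 1.5 times the reported count under all alternatives run, and no called value of a named member changed sign. The difference of the members' mean moved by more than 1 SD in 7 of 18 comparisons with an added 0.1 TPM and in 6 of 18 after rescaling. Leaving out 1 library gave 15 to 22 called members for 5xFAD GFP-negative against control, 28 to 30 for the P28 gates, 17 to 24 for glioma against EAE and 22 to 30 for P6 against P28. Small counts moved. Between the cuprizone gates the count was 1, and 2 after rescaling, 3 with a replicate block and 2 with a term for sex (1 to 2 without 1 library). For cuprizone GFP-positive against control it was 1, and 3 at a minimum of 5 TPM, 5 after rescaling, 5 with the replicate block and 6 with the sex term (1 to 5). Between the glioma gates it was 2, and 1 with an added 0.1 TPM, 1 with no filter, 0 after rescaling and 1 with no trend (0 to 2). Between the EAE gates it was 3, and 1 with an added 0.1 TPM, 0 after rescaling, 0 with no trend and 0 with the replicate block (0 to 4). Between the P6 gates it was 1, and 0 with an added 0.1 TPM, with no filter, at 5 TPM and with no trend (0 to 3). For P28 GFP-negative against contralateral it was 7, and 0 with no filter and 1 with no trend (0 to 10). Without 1 library it was 0 to 1 between the 5xFAD gates and 0 to 3 for P6 GFP-positive against contralateral. The cause was not tested.

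Of 863 repeats of 50 called values of named members, 28 were no longer called, namely Irf7 (14 of its repeats) and Ifitm3 (5) in P28 GFP-negative against contralateral libraries and Isg15 (9) in 5xFAD GFP-negative libraries. Rescaling the other pathway lists was chosen after seeing the data; of their 689 called values 18 changed sign, and none of these was then called. The labels do not say that replicate numbers pair the samples. The correlation of same-numbered libraries ran from −0.08 to 0.20 over 18 pairs of groups, none with every pair over 0.1. In 1 pair of groups every library correlated best with its own number, contralateral and GFP-positive in the P6 stroke. There 3 of 4 libraries did so in each other pair of groups, in the P28 stroke 2, 3 and 2 of 4, and in EAE 2, 2 and 1 of 3. Whether same-numbered libraries share an animal or a sort is thus not known, and the main fits have no term for it.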
